A study of Homo sapiens with 4 samples.

Results

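The messenger RNA levels of 8 genes of the caspase pathway were compared between control and RALY knockdown cells: the caspase genes CASP2, CASP6, CASP8, CASP9 and CASP10, the apoptosome scaffold gene APAF1, and the inhibitor of apoptosis genes XIAP and BIRC2. The genes were chosen by name and matched by Ensembl identifier, and all 8 were found among the 58884 genes of the count tables and passed the filter that left 19686 genes for testing. The samples were 2 control and 2 knockdown libraries of HCT116, an established human colorectal carcinoma line, sequenced from total RNA. Per the labels' protocols, cells were exposed for 72 h to lentivirus with a short hairpin RNA directed at RALY or with a nonsilencing hairpin, in the presence of polybrene (spelled polyprene there). The source name of replicate 2 in each group reads HCT-117, while the cell line entry and the growth protocol give HCT116 for all 4 libraries, so a difference in cells, if there was one, cannot be told apart from the replicate number. Elsewhere the labels call the controls WT or untreated, so it is unclear whether the control libraries carried the nonsilencing hairpin, and the sources used here do not give the number of hairpins. The labels do not state that replicates were separate cultures, so p-values cover only the spread among the 4 libraries, possibly a technical one.

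Caspases are cysteine proteases that are made as inactive precursors. In the extrinsic route, death receptors recruit the adaptor FADD, which gathers the initiators caspase-8 and caspase-10. In the intrinsic route, cytochrome c released from mitochondria assembles APAF1 into the apoptosome, which activates caspase-9. Both routes converge on executioner caspases, and inhibitor of apoptosis proteins such as XIAP and cIAP1, the product of BIRC2, restrain them at different points.

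Library totals ran from 13360007 to 16847520 counts. RALY, the targeted gene, fell from 134 to 37.3 CPM, counts scaled to a library total of 1e6 (log2 fold change -1.84, edgeR quasi-likelihood adjusted p = 6.59e-06). The epithelial markers EPCAM, KRT8, KRT18 and KRT19 had at least 1684 counts in every library. CDH1 had 543 and 966 counts in the control libraries and 620 and 555 in the knockdown libraries. Its CPM was lower in both knockdown libraries (log2 fold change -0.36, edgeR quasi-likelihood adjusted p = 0.114). The intestinal markers were near the floor, with 11 to 14 counts for VIL1 and at most 3 for CEACAM5 and CDX1. Markers of other cells were called higher in 1 of 2 tested fibroblast genes (COL6A3), 1 of 4 leukocyte genes (ITGAM) and 1 of 3 genes of HEK293T, a line often used for packaging lentivirus (NEFH). Over all genes tested, 12.5% were called higher by the same test. The summed levels of the 7 listed markers ranged from 180 to 212 CPM in the control libraries and 206 to 228 CPM in the knockdown for fibroblasts, from 33.7 to 37.3 and 34.8 to 35.0 CPM for leukocytes, and from 114 to 126 and 113 to 130.1 CPM for HEK293T. A few genes made up most of each sum: COL1A1 (1292 to 2263 counts) and COL6A3 (900 to 1990 counts) among the fibroblast markers, CD68 (337 to 475 counts) among the leukocyte markers, and CRABP2 (1271 to 1406 counts) and PAX2 (381 to 554 counts) among those of HEK293T. The other 5 fibroblast markers had at most 13 counts in any library, and the leukocyte markers PTPRC and CD3E at most 9. The part of other cells in the results below was not tested. In bulk RNA, fewer cells with a transcript and less of it per cell cannot be told apart.

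After RALY knockdown CASP8, APAF1 and XIAP rose and CASP10 fell, while CASP2, CASP6, CASP9 and BIRC2 did not pass the test. The rises were 1.42-fold, 1.44-fold and 1.37-fold, and CASP10 was 1.67-fold lower. Of all genes tested, 25.6% were called by the same test (edgeR adjusted p under 0.05), 12.5% as higher and 13.1% as lower. Here 3 of 8 genes were higher and 1 was lower. The median log2 fold change of the 8 genes was 0.08, beside 0.01 over all genes tested. For 7 of the 8 genes the control and knockdown levels were without overlap, which was true of 63.6% of the genes tested. Libraries of the same replicate number then necessarily differ in the same direction in both pairs. For CASP2, which overlapped, each knockdown library was also below its same-numbered control. The share of all genes with such a shared direction was not counted.

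The stretch of 200 bases just before the annotated start is shown for the 3 genes that rose, and for BIRC2 with its neighbour and paralog BIRC3, because the latter pair lie side by side and are compared below. The windows are chr2:201233243-201233442 for CASP8, chr12:98644941-98645140 for APAF1, chrX:123859524-123859723 for XIAP, chr11:102347011-102347210 for BIRC2 and chr11:102317250-102317449 for BIRC3, all on the plus strand of GRCh38 and printed 5′ to 3′.
CASP8: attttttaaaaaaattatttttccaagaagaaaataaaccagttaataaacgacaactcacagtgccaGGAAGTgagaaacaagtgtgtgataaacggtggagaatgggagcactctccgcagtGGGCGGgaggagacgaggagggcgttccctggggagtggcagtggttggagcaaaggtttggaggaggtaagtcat
APAF1: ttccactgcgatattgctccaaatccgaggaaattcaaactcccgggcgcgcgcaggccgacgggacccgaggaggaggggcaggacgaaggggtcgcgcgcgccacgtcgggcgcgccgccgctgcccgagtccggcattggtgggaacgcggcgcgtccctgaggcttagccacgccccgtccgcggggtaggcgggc
XIAP: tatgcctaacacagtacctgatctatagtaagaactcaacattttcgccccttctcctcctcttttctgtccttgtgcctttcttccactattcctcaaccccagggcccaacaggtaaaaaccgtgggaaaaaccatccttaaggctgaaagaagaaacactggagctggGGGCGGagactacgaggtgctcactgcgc
BIRC2: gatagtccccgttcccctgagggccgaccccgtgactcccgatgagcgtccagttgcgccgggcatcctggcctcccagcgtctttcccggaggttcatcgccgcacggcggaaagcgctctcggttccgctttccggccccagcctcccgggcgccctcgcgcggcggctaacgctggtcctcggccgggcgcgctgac
BIRC3: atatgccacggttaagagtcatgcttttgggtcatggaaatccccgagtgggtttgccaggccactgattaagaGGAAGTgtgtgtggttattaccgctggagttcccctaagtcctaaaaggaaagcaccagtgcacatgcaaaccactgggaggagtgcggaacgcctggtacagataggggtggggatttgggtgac
Capitals mark matches to the motifs searched on both strands, which were GGGCGG (SP1 and KLF), TGACTCA (AP-1), TGACGTCA (CREB and ATF), GGAATG (TEAD), TTTGGCGC (E2F) and GGAAGT (ETS). These letters do not overlap each other in the windows. CASP8 and XIAP each held 1 match to GGGCGG, at 76 and 29 bases before the gene start, and 40.1% of 35116 RefSeq promoter windows of the same length held that motif. CASP8 and BIRC3 each held 1 match to GGAAGT, at 132 and 126 bases before the start, and 16.7% of all windows held that motif at some position. No other motif matched in the 5 windows. The shares over all promoters were 3.54% for TGACTCA, 1.57% for TGACGTCA, 9.51% for GGAATG and 0.447% for TTTGGCGC. GC content was 72% for APAF1 and 72.5% for BIRC2, and 46%, 49.5% and 52% for CASP8, XIAP and BIRC3. RefSeq promoter entries were found for 7 of the 8 genes, CASP10 being the other. CASP8 and XIAP had 3 entries each and BIRC2 had 2, while 1 window is shown for each. Which start was used in these cells was not tested.

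The initiator caspases of death receptors moved in opposite directions. CASP8 (ENSG00000064012, GRCh38 chromosome 2, 201233443 to 201287711) had 674 and 858 counts in the control libraries and 1142 and 1062 in the knockdown libraries. These were 51.1 and 49.6 CPM against 71.2 and 71.4 CPM, so that each group was tight and both knockdown libraries lay above both controls. The mean rose from 50.4 ± 1.03 to 71.3 ± 0.117 CPM (SD, n = 2 each; log2 fold change 0.50, SE 0.116, edgeR's adjusted p = 0.0081). The call was lost when either control was left out (edgeR's adjusted p = 0.112 and 0.12 in the absence of control replicates 1 and 2 in turn), with log2 fold changes of 0.49 and 0.47.

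CASP10 (ENSG00000003400, chromosome 2, 201182881 to 201229406), the close relative of CASP8 that is also gathered by FADD, had 383 and 540 counts in the control libraries and 301 and 256 in the knockdown libraries. Both knockdown libraries, at 18.8 and 17.2 CPM, were below the controls at 29.0 and 31.2 CPM. The mean fell from 30.1 ± 1.56 to 18.0 ± 1.11 CPM (SD, n = 2 each; log2 fold change -0.74, SE 0.164, edgeR's adjusted p = 0.00639). It was the only member called in a test against a minimum fold of 1.2. Without control replicate 1 or 2 its log2 fold changes were -0.83 and -0.70 and it was not called (edgeR's adjusted p = 0.077 and 0.12).

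CFLAR, CASP10 and CASP8 lie in this order on the plus strand of chromosome 2, with gaps of 6193 and 4036 bases between their annotated spans. CFLAR encodes c-FLIP, a caspase-8 relative without protease activity that competes for the same adaptor. Its level was 77.9 and 77.5 CPM in the control libraries and 58.4 and 44.4 CPM in the knockdown libraries, which differed more from each other than the controls did. The gene fell by 0.59 in log2 units (SE 0.138, edgeR's adjusted p = 0.00854), and by 0.42 without knockdown replicate 2. Leaving out control replicate 1 or 2 ended the call of CFLAR (edgeR's adjusted p = 0.104 and 0.118). The first and second genes of this cluster were thus lower and the third was higher in the knockdown. CASP8 and CASP10 share no exon bases with any other annotated gene, while 12.1% of the exon bases of CFLAR are shared with other genes.

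**Figure D1:**
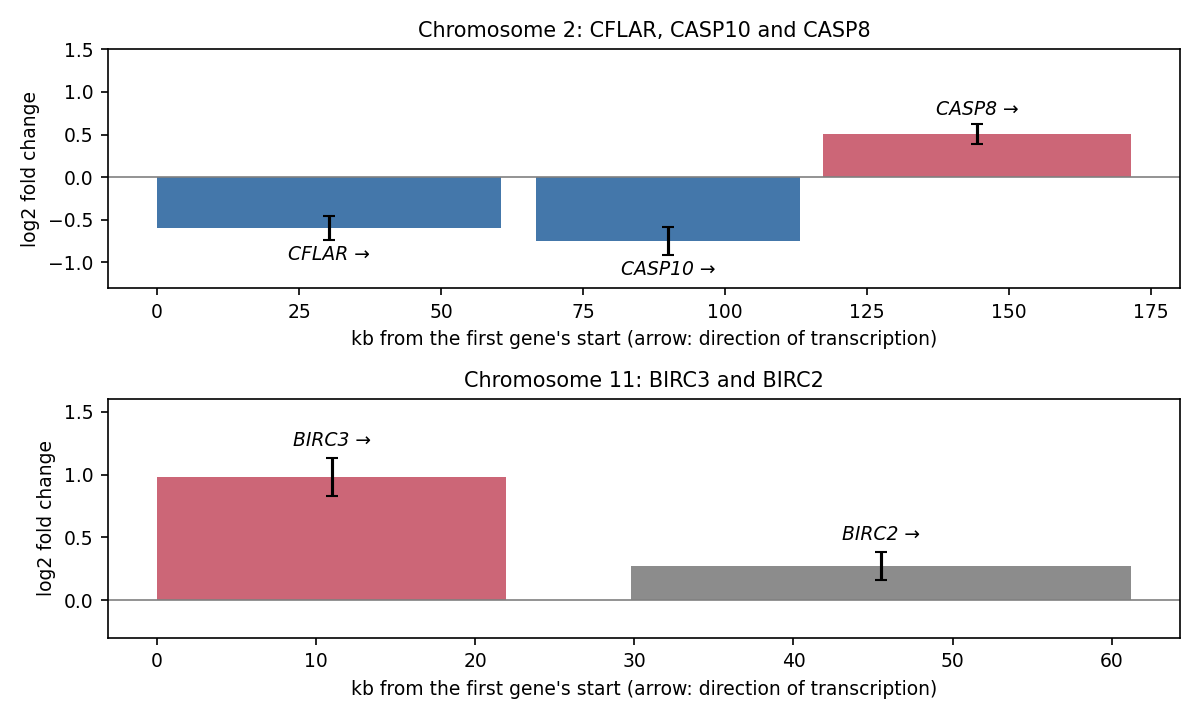
Log2 fold change of knockdown over control (y axis, bars with SE as whiskers) over the span of each gene in kb from the start of the first gene (x axis), with red for called higher, blue for called lower and grey for not called. CFLAR and CASP10 point down at -0.59 and -0.74 and CASP8 points up at 0.50, while BIRC3 stands at 0.98 and BIRC2 at 0.27.

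Ratios of counts within a library do not depend on how libraries were scaled, and 6 pairs were compared. There were 1.76 and 1.59 CASP8 counts per CASP10 count in control cells and 3.79 and 4.15 in the knockdown. CASP8 counts per CFLAR count were 0.656 and 0.641 in control cells and 1.22 and 1.61 in the knockdown. Both ratios were higher in both knockdown libraries, by 1.25 and 1.11 on the log2 scale. With 2 libraries a group the exact two-sided permutation test gives 0.333 for each, the smallest p it can give (0.4 after Benjamini-Hochberg adjustment over the 6 pairs).

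**Figure D2:**
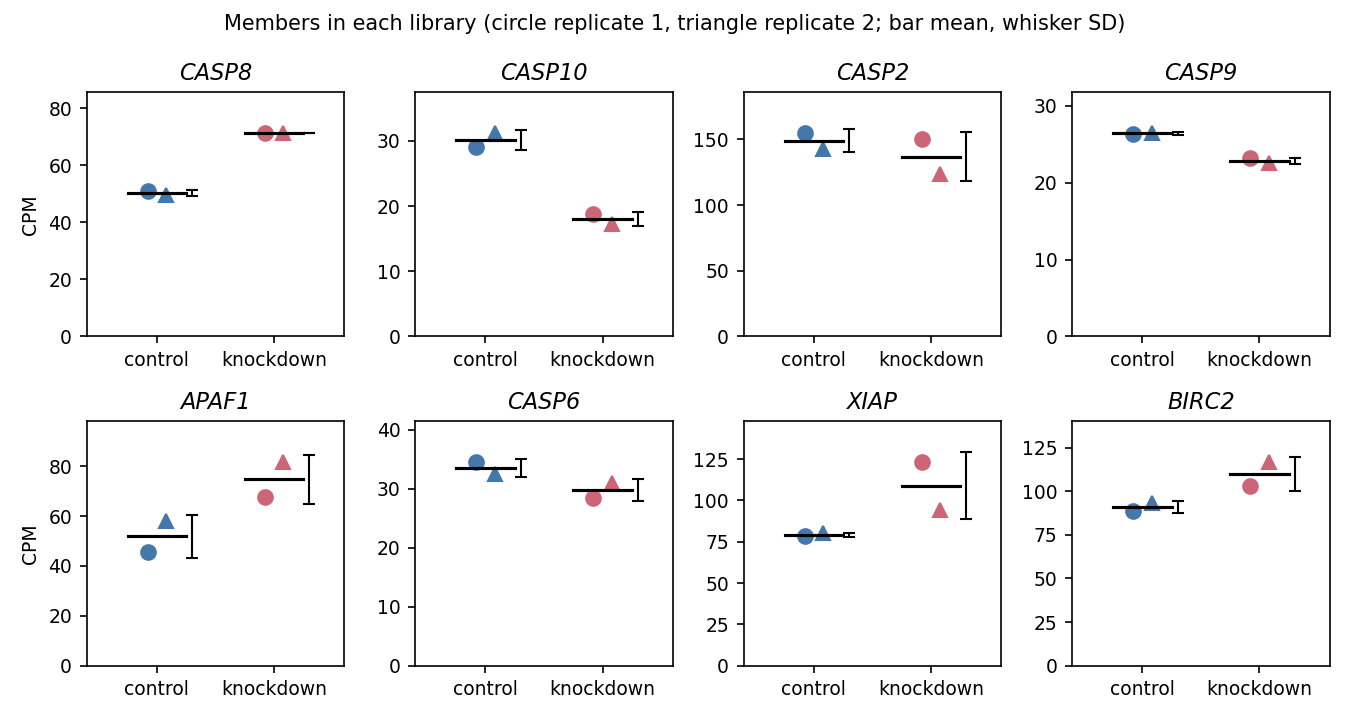
CPM (y axis, from 0) of the 8 genes in control (blue) and knockdown (red) libraries, with circles for replicate 1, triangles for replicate 2, a bar at the group mean and a whisker of 1 SD. CASP8, APAF1, XIAP and BIRC2 lie higher in both knockdown libraries, CASP6, CASP9 and CASP10 lower, and CASP2 overlaps between the groups.

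In the intrinsic route, the scaffold rose and its caspase did not pass the test. APAF1 (ENSG00000120868, chromosome 12, 98645141 to 98735433) had 604 and 1002 counts in the control libraries and 1086 and 1215 in the knockdown libraries. The controls stood at 45.8 and 58.0 CPM and the knockdown libraries at 67.8 and 81.7 CPM, so the groups were apart by less than the distance between the libraries of either group. The mean rose from 51.9 ± 8.62 to 74.7 ± 9.86 CPM (SD, n = 2 each; log2 fold change 0.52, SE 0.144, edgeR's adjusted p = 0.0189). The value depended on the control library used: in log2 units it was 0.33 with control replicate 1 left out and 0.69 with control replicate 2 left out, and neither was called (edgeR's adjusted p = 0.295 and 0.0735). ANKS1B, on the opposite strand, shares 9.48% of the exon bases of APAF1 but had at most 12 counts in any library.

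CASP9 (ENSG00000132906, chromosome 1, 15490832 to 15526534), the caspase activated on the apoptosome, had 347 and 458 counts in the control libraries and 371 and 336 in the knockdown libraries. At 26.3 and 26.5 CPM against 23.1 and 22.6 CPM, both knockdown libraries were slightly below both controls. The log2 fold change was -0.21 (95% interval -0.55 to 0.14, edgeR's adjusted p = 0.371). There were 1.74 and 2.19 APAF1 counts per CASP9 count in control cells and 2.93 and 3.62 in the knockdown, without overlap (exact permutation p = 0.333, adjusted 0.4). CYCS, which encodes cytochrome c, stood at -0.03 on the log2 scale (edgeR's adjusted p = 0.906).

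CASP2 and CASP6 did not pass the test. CASP2 (ENSG00000106144, chromosome 7, 143288215 to 143307696), an initiator activated on the PIDDosome after DNA damage or centrosome errors, was the most counted of the 8 genes, with 2045 and 2467 counts in the control libraries and 2403 and 1841 in the knockdown libraries. The groups overlapped, at 155 and 143 CPM against 149.9 and 124 CPM (log2 fold change -0.12, 95% interval -0.39 to 0.15, edgeR's adjusted p = 0.52), and the value was 0.0058 without knockdown replicate 2. The PIDDosome scaffold gene PIDD1 rose from 75.2 ± 4.16 to 111 ± 0.994 CPM (SD, n = 2 each; log2 fold change 0.56, edgeR's adjusted p = 0.00331). CRADD, the adaptor between PIDD1 and CASP2, stood at -0.40 on the log2 scale (edgeR's adjusted p = 0.155). Leaving out control replicate 1 or 2 ended the call of PIDD1 (edgeR's adjusted p = 0.0547 and 0.0835).

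CASP6 (ENSG00000138794, chromosome 4, 109688622 to 109703583), an executioner that cleaves lamins, had 456 and 562 counts in the control libraries and 457 and 462 in the knockdown libraries. The levels were 34.6 and 32.5 CPM against 28.5 and 31.1 CPM, slightly lower in both knockdown libraries (log2 fold change -0.17, 95% interval -0.49 to 0.15, edgeR's adjusted p = 0.427). The intervals of CASP2, CASP6 and CASP9 take in both small rises and falls of up to 0.39, 0.49 and 0.55 on the log2 scale. MCUB, on the opposite strand, shares 5.04% of the exon bases of CASP6 and had 688 to 915 counts, and the sources used here do not give whether strand was used in counting.

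Of the inhibitors, XIAP rose and BIRC2 missed the threshold. XIAP (ENSG00000101966, chromosome X, 123859724 to 123913979) encodes a protein that binds and blocks caspase-9 and some, not all, executioner caspases. The gene had 1032 and 1386 counts in the control libraries and 1976 and 1405 in the knockdown libraries. The controls were close, at 78.2 and 80.2 CPM, while the knockdown libraries stood at 123 and 94.5 CPM. The mean rose from 79.2 ± 1.39 to 109 ± 20.4 CPM (SD, n = 2 each; log2 fold change 0.46, SE 0.132, edgeR's adjusted p = 0.0236). Without knockdown replicate 1, the higher of the pair, the log2 fold change was 0.23 and the gene was not called (edgeR's adjusted p = 0.176). It was also not called without control replicate 1 or 2 (edgeR's adjusted p = 0.233 and 0.188), and was 0.63 on the log2 scale without knockdown replicate 2.

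BIRC2 (ENSG00000110330, chromosome 11, 102347211 to 102378670), which encodes a ubiquitin ligase of the tumour necrosis factor receptor complex, had 1167 and 1615 counts in the control libraries and 1653 and 1737 in the knockdown libraries. Both knockdown libraries, at 103 and 117 CPM, were above the controls at 88.5 and 93.4 CPM. The log2 fold change of 0.27 (95% interval 0.03 to 0.52, without adjustment) missed the threshold after adjustment over all genes (edgeR's adjusted p = 0.0965), and passed it without knockdown replicate 1 (0.34, edgeR's adjusted p = 0.033).

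Ratios of APAF1 to XIAP overlapped between the groups, at 0.585 and 0.723 in control cells and 0.55 and 0.865 in the knockdown. CASP9 counts per XIAP count were lower in both knockdown libraries, with 0.336 and 0.330 in control cells and 0.188 and 0.239 in the knockdown (exact permutation p = 0.333, adjusted 0.4). This ratio sets a caspase against its inhibitor at the level of transcripts, not of proteins.

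**Figure D3:**
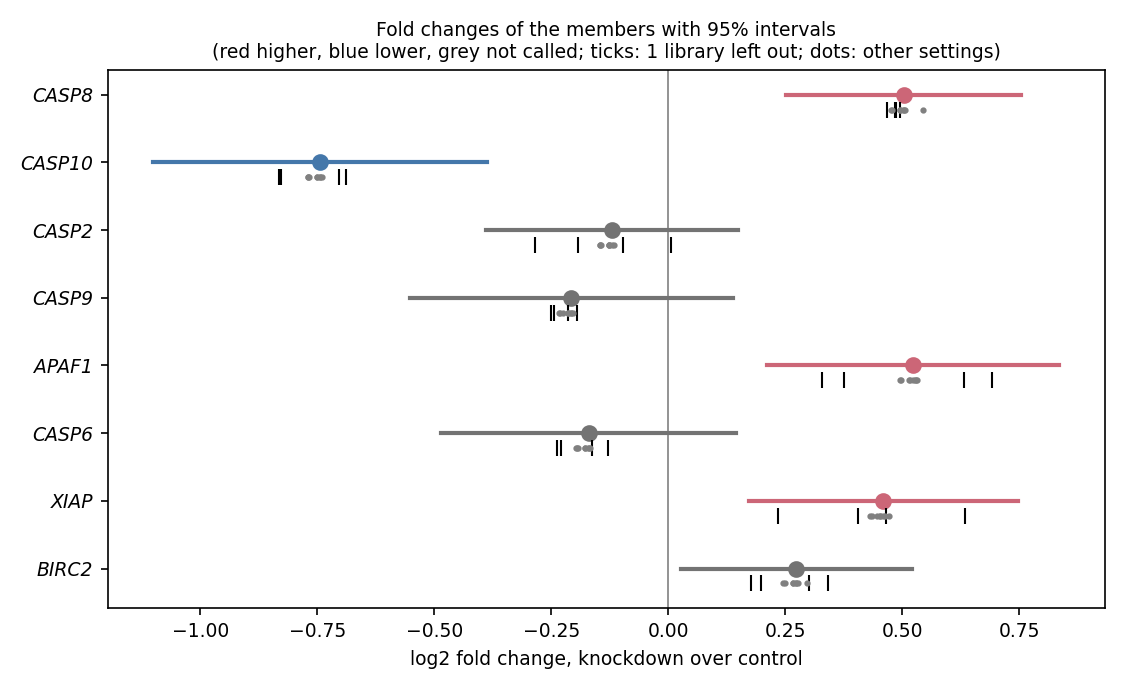
Log2 fold change of knockdown over control (x axis) for the 8 genes (y axis), as points with 95% intervals, with ticks for fits that leave out 1 library and dots for the other settings tried. The 95% intervals of CASP2, CASP6 and CASP9 take in 0. Of the ticks and dots, only those of CASP2 lie on both sides of 0. Those of XIAP range from 0.23 to 0.63, and those of CASP8 and CASP10 keep to 0.47 to 0.54 and -0.83 to -0.69.

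Compared per length, the 8 genes spanned a wide range of levels. In RPKM, CPM per kb of annotated exons, the control means were 20.1 ± 0.776 for BIRC2, 18.6 ± 1.08 for CASP2, 17.3 ± 0.746 for CASP6 and 8.78 ± 0.154 for XIAP (SD, n = 2). Those of CASP8, APAF1, CASP9 and CASP10 were 6.95 ± 0.142, 6.56 ± 1.09, 5.01 ± 0.0261 and 3.97 ± 0.206 RPKM. The knockdown means fell in the same order, from 24.3 RPKM for BIRC2 to 2.37 RPKM for CASP10. CASP8 and APAF1, neighbours in this order, overlapped in both groups, and CASP2 and CASP6 overlapped in the knockdown. The order depends on the length used, since CASP8 has 7243 annotated exon bases but a canonical transcript of 2659 bases. With canonical lengths its control level was 18.9 RPKM, above XIAP at 9.25 RPKM, and CASP2 came first at 36.4 RPKM.

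The genes also share features of sequence and depth. RALY is related to HNRNPC, a protein known to bind runs of uridine. Runs of at least 9 T on the sense strand were present in the span of each of the 8 genes, at densities from 4.01 per 10 kb in CASP6 to 7.37 per 10 kb in XIAP, beside a median of 2.51 over 19677 genes. CASP8 and CASP10, which moved in opposite directions, had 4.42 and 5.16. Across all genes the medians were 2.62 for genes called higher, 2.5 for genes called lower and 2.48 for the rest. None of these medians was matched to the 8 genes for span or introns, and binding by RALY was not tested. One alternative setting assumed that counts approach a ceiling of 2 per base of canonical transcript. Whether such a ceiling is present in the tables was not tested, and the mean counts were between 3.26% (CASP10) and 26.8% (CASP2) of it.

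Partners of the 8 genes were taken from 6 lists of 40 genes, of which 33 were tested. Of these 4 were higher and 10 lower, or 42.4% called beside 25.6% of all genes, with a median log2 fold change of -0.0097. No list was tested as a set, so a difference in share is not a result about a list. Without control replicate 1 only DFFB, and without control replicate 2 only BIRC3 and DFFB, were still called among the 14. Without knockdown replicate 1, BIRC6, TNFRSF10A and TNFRSF1A were not called.

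**Figure D4:**
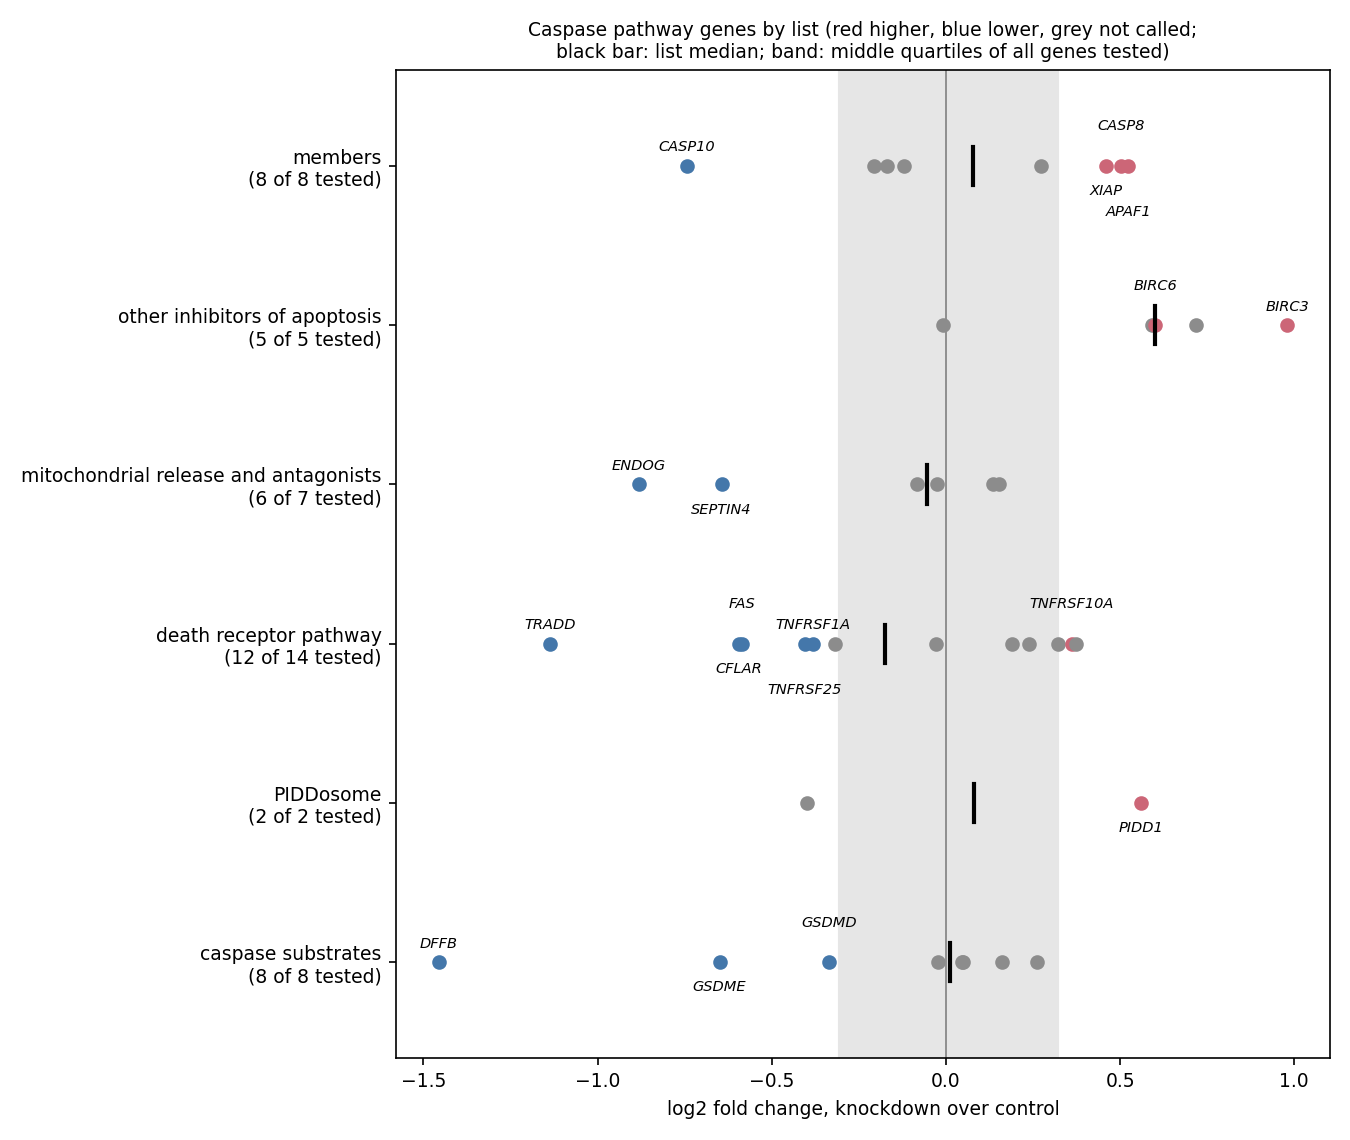
Log2 fold change of knockdown over control (x axis) for each tested gene of the 8 members and of each further list with a tested gene (y axis), in red for called higher, blue for called lower and grey for not called, with a black bar at each list's median and a band over the middle quartiles of all genes tested (-0.31 to 0.32). Called genes of the inhibitor list lie on the right and those of the mitochondrial and substrate lists on the left.

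The inflammatory caspase genes CASP1, CASP4 and CASP5 had at most 9 counts in any library, CASP14, the caspase of the skin barrier, had none, and none of the 4 was tested.

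Of the 5 other inhibitor of apoptosis genes, 2 rose (40% called, beside 25.6% of all genes tested), and the median log2 fold change was 0.60. BIRC3, which encodes cIAP2 and is a known NF-kB target, had 21.0 and 24.1 CPM in the control libraries and 40.7 and 48.3 CPM in the knockdown libraries. Its groups were well apart (log2 fold change 0.98, SE 0.155, edgeR's adjusted p = 0.000935; 0.0589 without control replicate 1). BIRC3 ends 7807 bases before the start of BIRC2 on the same strand. There were 4.21 and 3.88 BIRC2 counts per BIRC3 count in control cells and 2.53 and 2.42 in the knockdown, lower in both knockdown libraries (exact permutation p = 0.333, adjusted 0.4). BIRC6, a giant ubiquitin-conjugating inhibitor, had 179 and 181 CPM in the control libraries and 315 and 230.4 CPM in the knockdown libraries. Like XIAP it was higher in knockdown replicate 1 than in replicate 2 (log2 fold change 0.60, edgeR's adjusted p = 0.0117), and it was 0.34 on the log2 scale and not called without that library (edgeR's adjusted p = 0.062). BIRC5, which encodes survivin and acts in mitosis, stood at -0.01 on the log2 scale (edgeR's adjusted p = 0.967).

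Of 6 tested genes of mitochondrial release and of antagonists of the inhibitors, 2 fell (33.3% called, beside 25.6% of all genes tested). ENDOG, a mitochondrial nuclease, fell by 0.88 in log2 units (edgeR's adjusted p = 0.00581), and SEPTIN4, whose ARTS isoform binds XIAP, fell by 0.64 (edgeR's adjusted p = 0.0196). SEPTIN4 was at -0.45 without knockdown replicate 1 and at -0.90 without knockdown replicate 2. The XIAP antagonists DIABLO and HTRA2 had log2 fold changes of 0.14 and 0.15 (edgeR's adjusted p = 0.411 and 0.478). DIABLO, HTRA2 and ENDOG overlap other genes in 32.3%, 31.0% and 40.1% of their exon bases, which makes their counts uncertain.

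Of 12 tested genes of the death receptor pathway, 5 fell and 1 rose, with a median log2 fold change of -0.17. This was 50% called, beside 25.6% of all genes tested. TRADD, the adaptor of the tumour necrosis factor receptor, had 18.3 and 19.6 CPM in the control libraries and 9.48 and 7.73 CPM after knockdown (log2 fold change -1.14, SE 0.207, edgeR's adjusted p = 0.00213; 0.0523 and 0.0736 with control replicate 1 or 2 left out). The receptor genes FAS, TNFRSF25 and TNFRSF1A fell by 0.59, 0.40 and 0.38 in log2 units (edgeR's adjusted p = 0.0163, 0.0236 and 0.0367), and CFLAR is the other that fell. TNFRSF10A, a receptor for TRAIL, rose by 0.36 (edgeR's adjusted p = 0.0324), but was not called by the DESeq2 Wald test (adjusted p = 0.0542) or by edgeR with no filter on low counts (adjusted p = 0.0545). FADD, the adaptor shared by CASP8 and CASP10, had 42.6 CPM in the control libraries and 34.1 CPM after knockdown (log2 fold change -0.32, edgeR's adjusted p = 0.097). FAS and FADD overlap other genes in 40.6% and 54.9% of their exon bases, so their counts are uncertain.

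In the list of caspase substrates and linked genes, 3 of 8 fell (37.5% called, beside 25.6% of all genes tested) and 5 did not pass the test. DFFB, the nuclease that cuts DNA between nucleosomes once caspases remove its inhibitor, had 526 and 669 counts in the control libraries and 225 and 217 in the knockdown libraries. It stood at 39.9 and 38.7 CPM against 14.0 and 14.6 CPM, 2.74-fold lower (log2 fold change -1.46, SE 0.158, edgeR's adjusted p = 9.19e-05). DFFB was the gene of these lists that stayed called in all 12 alternative settings, with log2 fold changes from -1.52 to -1.45. DFFA, which encodes its inhibitor and is itself cleaved by caspases, stood at 0.05 on the log2 scale (edgeR's adjusted p = 0.819). The gasdermin genes GSDME and GSDMD, whose products form pores after cleavage, fell by 0.65 and 0.34 in log2 units (edgeR's adjusted p = 0.00428 and 0.0448), and the DESeq2 Wald test did not call GSDMD (adjusted p = 0.0544).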

How the data were processed

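The deposited values are raw counts for each gene, in a separate table for each library laid out as featureCounts does, per the file headers. The authors used, according to the submitters' processing notes, HISAT2 2.0.4, SAMtools, featureCounts and Subread with GRCh38; no roles, settings or strand use are given in the sources used here. Of 58884 gene IDs, 58472 had a symbol in GENCODE release 44.

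The test was that of edgeR 4.0.16 in R 4.3.3 (filterByExpr, TMM scaling, robust quasi-likelihood fit by group, Benjamini-Hochberg adjustment over 19686 genes; called at adjusted p under 0.05). In simulated counts for this comparison, over 19686 genes, 98% of genes changed 2-fold and 32% of those changed 1.5-fold were called. Only 200 genes were changed there, with a common spread, while 25.6% of all genes were called in the data. The adjustment was therefore stricter in the simulation, and the share of changes missed in the data is not known. A gene that was not called may still have changed. Alternatives were DESeq2 size factors, plain totals, the DESeq2 1.42.0 Wald test, no filter, 1 CPM in 2 libraries, a replicate block, each library left out, a minimum fold of 1.2, and saturation-corrected counts (an assumed, untested ceiling of 2 per base of canonical transcript). Replicates differed by more than sampling noise (chi-square over its degrees of freedom: 5.1 in controls, 9.32 in knockdown).

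Members, lists, pairs and motifs were chosen with earlier results of these data known. The text names RALY, all 8 members, every called gene of the 6 lists and fixed close partners of the members; some further caspase genes are not reported here. CASP1, CASP4, CASP5, CASP14 and BIRC5 were added after their values were seen.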

Additional observations from a re-analysis of the deposited data

How the results depend on the processing

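Under DESeq2 size factors, plain totals, the DESeq2 Wald test, no filter, 1 CPM in 2 libraries and saturation-corrected counts, CASP8, APAF1, XIAP and CASP10 stayed called and no other member was. With the replicate number as a block, edgeR called the same 4 members and 7054 genes in all; same-numbered libraries deviated together only weakly (r = 0.219 across genes), and 2 pairs that share only a number do not establish pairing. Against a minimum fold of 1.2, 3084 genes, 1 member (CASP10) and 8 genes of the wider lists were called; CASP8, APAF1 and XIAP, at 0.50, 0.52 and 0.46 on the log2 scale, had adjusted p = 0.0524, 0.0791 and 0.118 by edgeR's test against that fold. Leaving out 1 library at a time gave 984 to 6259 called genes, 0 to 4 members and 1 to 16 genes of the wider lists. Edge values of the log2 fold change were 0.47 and 0.50 for CASP8, -0.83 and -0.69 for CASP10, 0.33 and 0.69 for APAF1, 0.23 and 0.63 for XIAP, 0.18 and 0.34 for BIRC2, and -0.28 and 0.0058 for CASP2, whose sign turned without knockdown replicate 2. Without control replicate 1 or 2, edgeR called 0 members, while 2 and 4 had an unadjusted p under 0.05; DESeq2 was run on all 4 libraries only, where it called 4. A fit without a control takes its spread from the knockdown pair alone. By SD in CPM that pair differed more than the controls for APAF1 and XIAP and less for CASP8 and CASP10. Relative to the group mean, the order was the reverse for APAF1 and CASP10 and the same for XIAP and CASP8. Why the calls were lost was not tested. With a library left out, signs also turned for CYCS (-0.18 to 0.084), HTRA2 (-0.039 to 0.30) and the APAF1 to XIAP log2 ratio (-0.24 to 0.41), none of them called. The pair ratios were tried only with libraries left out and with saturation-corrected counts, settings chosen after seeing the data.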
